A study of Rattus norvegicus with 12 samples.

Results

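The miR-10 and miR-196 families are microRNAs (miRNAs) encoded within the Hox gene clusters, and their mature forms were counted by small RNA sequencing of hippocampal tissue, 1 library for each of 12 adult male Sprague Dawley rats. Of the 753 mature miRNAs listed for each library, 10 belong to the stems miR-10a, miR-10b, miR-196a, miR-196b and miR-196c, and all listed arms were taken: rno-miR-10a-5p, rno-miR-10a-3p, rno-miR-10b-5p, rno-miR-10b-3p, and the 5p and 3p strands of miR-196a, miR-196b and miR-196c (such as rno-miR-196a-5p and rno-miR-196b-5p), written below without the prefix for rat. All rats were aged P70 to P80 (postnatal days). The 8 ethanol rats received 4 g/kg ethanol in saline by intraperitoneal injection and the 4 vehicle rats an injection without ethanol, with euthanasia 3 h later. The labels place the tissue in the right hippocampus, and the title places it in the dorsal hippocampus. The stems were chosen by position in the Hox clusters and selected on the measured CPM and ethanol fold change of miR-10b-5p in these same libraries, so the ethanol comparison is given for them as a description, without a p-value for any member.

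A miRNA is cut from a hairpin precursor, and either arm (5p or 3p) can be loaded into the silencing complex, where bases 2 to 8 of the mature strand, the seed, lead the pairing with target mRNAs. Hox genes are transcription factors that give cells their position along the head to tail axis. Their expression begins in the hindbrain and runs toward the tail, and the forebrain, of which the hippocampus is a part, lies in front of it. The miRNAs within the clusters are known to be expressed in similar domains, and Hox mRNAs are among their known targets. In the RefSeq gene table of the rat assembly GRCr8, the miR-10a gene lies between Hoxb5 and Hoxb4 and the miR-10b gene lies within the gene model of Hoxd4. The miR-196a gene lies between Hoxc10 and Hoxc9, miR-196b between Hoxa9 and Hoxa10, and miR-196c between Hoxb13 and Hoxb9. Coordinates are not given, because the submitters' processing notes name another build, rn5.

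Mature sequences of 9 of the 10 members were matched by name in RefSeq (GRCr8), the exception being miR-196a-3p. The main strands are shown because members of one family are nearly identical, which bears on how their reads were counted. Capitals mark the seed.
miR-10a-5p: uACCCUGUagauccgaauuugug
miR-10b-5p: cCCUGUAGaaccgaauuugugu
miR-196a-5p: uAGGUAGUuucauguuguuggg
miR-196b-5p: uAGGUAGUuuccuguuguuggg
miR-196c-5p: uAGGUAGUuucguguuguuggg
The 3 miR-196 strands share the seed AGGUAGU and differ from each other at 1 of 22 bases, which is A12C between miR-196a and miR-196b and A12G between miR-196a and miR-196c (the base of the first strand, its position from the 5′ end, and the base of the second). Aligned without gaps, miR-10a-5p and miR-10b-5p are identical at 20 of 21 facing bases, the difference being U12A at the positions of miR-10a-5p.

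The listed start of miR-10b-5p lies 2 bases further in than that of miR-10a-5p, so that their listed seeds differ (ACCCUGU and CCUGUAG). The hairpins are shown to place both starts, with the listed 5p and 3p strands in capitals.
Mir10a hairpin: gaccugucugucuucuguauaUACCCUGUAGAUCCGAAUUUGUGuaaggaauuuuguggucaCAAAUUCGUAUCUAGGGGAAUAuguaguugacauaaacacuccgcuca
Mir10b hairpin: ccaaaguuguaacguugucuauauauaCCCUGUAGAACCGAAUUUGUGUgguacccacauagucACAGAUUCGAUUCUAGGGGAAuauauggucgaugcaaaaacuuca
In the miR-10b hairpin the 2 bases just before the listed strand are UA. A strand starting there would be identical to miR-10a-5p at 22 of 23 bases, with U12A as the only difference, and would have the same seed, ACCCUGU. The listing used to count the reads is not given in the sources used here, and its part in the counts of miR-10b-5p was not tested.

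The deposited values are estimated read counts, some of them fractional, as arises when a read that fits several miRNAs is divided between them. Counts per library totalled between 1960704 and 4917928. Levels are given as CPM, which scales all libraries to one common total, with TMM factors that correct for differences in composition between libraries. A floor of 3 counts, below which a level was not read, lay at 0.610 to 1.53 CPM. This floor, like the intervals below, covers counting error only. Markers of the tissue were present in all 12 libraries, with miR-124-3p, a neuronal miRNA, at 2543 to 3485 CPM and miR-219a-5p, of oligodendrocytes, at 139 to 337 CPM. The libraries also held miR-204-5p, which is abundant in choroid plexus, at 13663 to 56445 CPM.

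Nearly all reads of the 10 members came from 1 strand, miR-10a-5p. It ranked 45 of the 420 miRNAs retained after rarely read miRNAs were left out, with a mean of 3313 ± 2277 CPM (SD, n = 12), while miR-10b-5p ranked 209 with 66.9 ± 88.0 CPM (SD, n = 12). In every library miR-10a-5p was above miR-10b-5p, by 6.30 ± 1.12 on the log2 CPM scale (SD, n = 12). In every library miR-10b-5p was above the next member, miR-10b-3p, with 2303 against 8 reads in all. The mean log2 difference of that pair was 5.41 (n = 12). Its size depends on the prior count of 2 used for log2 CPM, because miR-10b-3p had 0 reads in 7 libraries and at most 3 in any. The same limit holds for the next pairs. Their mean log2 differences were 0.18 ± 0.60 (SD, n = 12) between miR-10b-3p and miR-10a-3p and 0.06 ± 0.37 (SD, n = 12) between miR-10a-3p and miR-196a-5p. The order of these rarely read strands was therefore not read. The rest of the order was read from these same values, so it is a description without a test. How evenly the library chemistry captured each strand was not tested.

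In vehicle rats 9, 10, 19 and 20, miR-10a-5p was at 2046, 2151, 2041 and 2310 CPM. These 4 values lie close together, with a mean of 2137 CPM and an SD of 126 (n = 4). In the 8 ethanol rats it ran from 1006 CPM in rat 23 through a median of 3102 to 8668 in rat 24, at 3902 ± 2637 CPM (SD, n = 8). Of the 8 ethanol rats, 6 lay above every vehicle rat and 2, rats 15 and 23, lay below every vehicle rat, so that no ethanol rat fell inside the range of the vehicle rats. The 2 highest, rats 4 and 24, were at 7161 and 8668 CPM, and the next, rat 3, was at 3488. Together with miR-10b-5p, miR-10a-5p took between 0.100% of all counts in ethanol rat 23 and 0.907% in ethanol rat 24. In whole tissue, a different share of cells with a miRNA and a different amount per cell cannot be told apart.

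In vehicle rats 9, 10, 19 and 20, miR-10b-5p was at 5.94, 28.9, 15.1 and 17.2 CPM, or 16.8 ± 9.45 CPM (SD, n = 4). In ethanol rats it ran from 17.4 CPM in rat 8 through a median of 33.4 to 286 in rat 24, at 92.0 ± 99.9 CPM (SD, n = 8). Rats 3 and 4 followed rat 24, at 153 and 169 CPM, and the next, rat 16, was at 41.8. The groups overlapped, with 4 of 8 ethanol rats above every vehicle rat and 4 within the range of the vehicle rats. Deposited reads of miR-10b-5p were between 18.2 and 974 per library, against 3067 to 29523 for miR-10a-5p, and both were fractional in all 12 libraries.

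**Figure D1:**
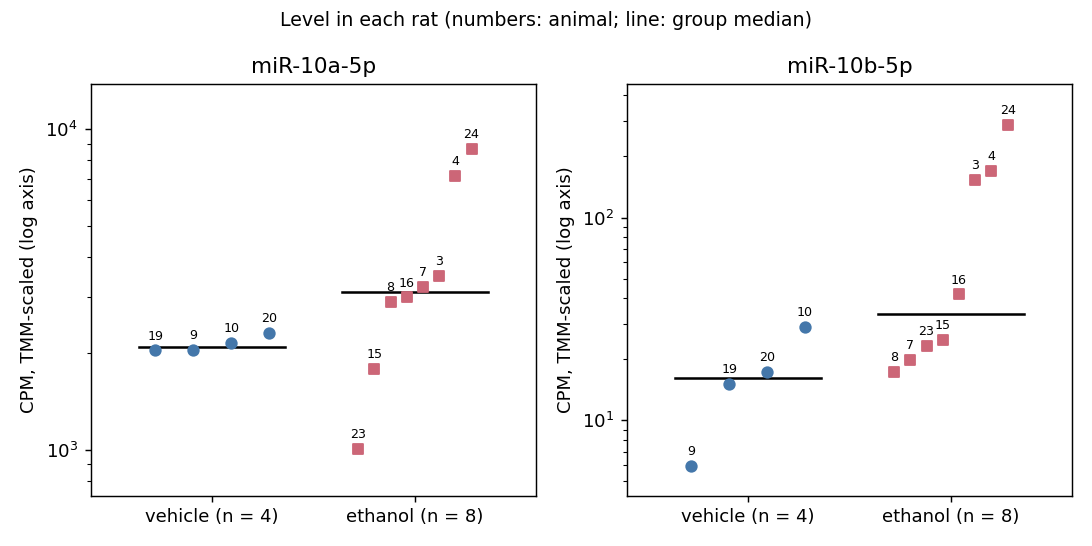
Level of miR-10a-5p (left) and miR-10b-5p (right) in each rat, in TMM-scaled CPM on a log axis, with vehicle rats as circles and ethanol rats as squares, the animal number beside each point and a line at the group median. The 4 vehicle rats lie between 2041 and 2310 CPM for miR-10a-5p with 6 ethanol rats above and 2 below them, and ethanol rats 3, 4 and 24 stand above the others for miR-10b-5p at 153 to 286 CPM.

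The balance between both 5p strands needs no scaling by library size. Reads of miR-10a-5p exceeded those of miR-10b-5p by a factor of 22.7 in ethanol rat 3 to 341 in vehicle rat 9, a 15.0-fold range. In vehicle rats 9, 10, 19 and 20 the ratio was 341, 74.8, 136 and 134. In ethanol rats it ran from 22.7 through a median of 57.4 to 168, and 6 of the 8 lay below every vehicle rat. The log2 ratio averaged 7.18 ± 0.89 over the vehicle rats (SD, n = 4) and 5.91 ± 1.05 over the ethanol rats (SD, n = 8). The difference of -1.27 shares the values of miR-10b-5p that led to its choice and has no test.

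Expressed as a share of the reads of both strands, miR-10b-5p was lowest in vehicle rat 9 at 0.290% (95% Wilson interval 0.183 to 0.458) and highest in ethanol rat 3 at 4.21% (3.79 to 4.68). Ethanol rats 24, 4 and 23 followed at 3.19% (3.00 to 3.40), 2.31% (2.10 to 2.55) and 2.26% (1.80 to 2.84). Ethanol rat 23 thus combined the lowest level of miR-10a-5p with a share of miR-10b-5p close to that of rat 4, where miR-10a-5p was among the highest. Ethanol rats 7 and 8, at 0.615% and 0.597%, lay beside vehicle rats 19 and 20, at 0.736% and 0.740%, with overlapping intervals. Ethanol rats 15 and 16, both at 1.38%, were likewise not separable by counting error from vehicle rat 10 at 1.33%.

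**Figure D2:**
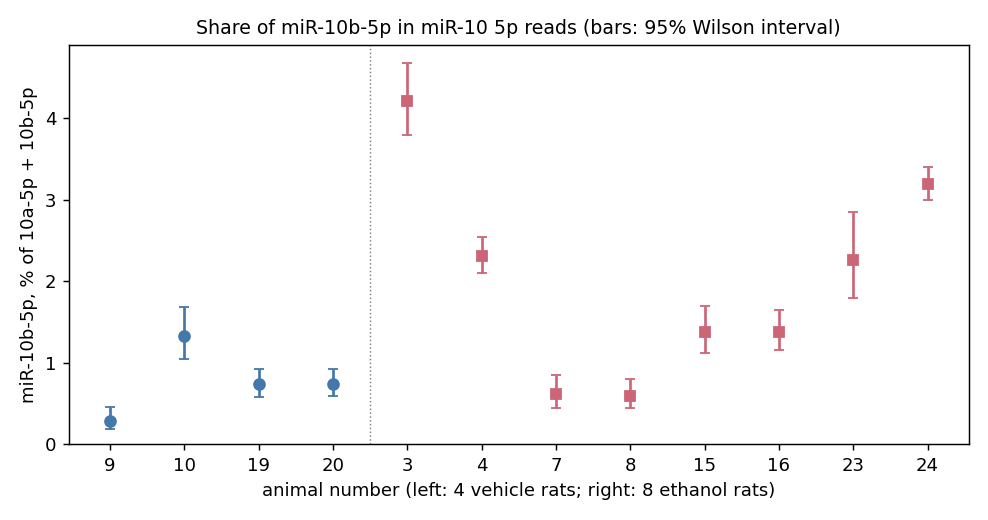
Reads of miR-10b-5p as a percentage of miR-10a-5p plus miR-10b-5p reads in each of 12 libraries, with the 95% Wilson interval as a bar and animal numbers on the horizontal axis (vehicle rats left, ethanol rats right). The share runs from 0.290% in vehicle rat 9 to 4.21% in ethanol rat 3, and 6 of 8 ethanol rats lie above all 4 vehicle rats.

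Whether reads were divided between these strands alone can be read from the counts, but how far the division sets this balance was not tested. The sum of miR-10a-5p and miR-10b-5p was whole, within 0.01, in 0 of 12 libraries, so their fractions do not arise between these strands alone. With miR-99a-5p, miR-99b-5p and miR-100-5p added it was whole in 2 of 12. By contrast, miR-196a-5p, miR-196b-5p and miR-196c-5p had the same value in every library, and their sum was whole in all 4 libraries with any read, as arises when each read is divided equally between the 3. The counts therefore do not tell the 3 miR-196 strands apart.

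In the comparison of ethanol with vehicle, edgeR's quasi-likelihood test was fitted to the 420 retained miRNAs. Only 2 of the 10 members passed the filter on low counts, miR-10a-5p and miR-10b-5p, and both had at least 10 reads in all 12 libraries. With Benjamini-Hochberg adjustment, 0 of 420 miRNAs (0%) had an adjusted p under 0.05, and 0 of the 2 members did. At an unadjusted p under 0.05 there were 17 of 420 (4.05%). DESeq2's Wald test called 1 of 420 (0.238%), miR-133b-3p, a muscle miRNA and not a member. The log2 fold change of miR-10b-5p was 2.47 with a standard error of 0.88, a linear fold of 5.54, and that of miR-10a-5p was 0.87 with a standard error of 0.46, a fold of 1.83. Both members were higher after ethanol, as were 193 of all 420 (46%). Their values are the highest and the second highest of the 420 fold changes, whose median was -0.02. Both were smaller as differences of mean log2 CPM, at 1.82 and 0.58, in which single high libraries weigh less. Without ethanol rat 24 the fitted values were 1.95 for miR-10b-5p and 0.59 for miR-10a-5p, and without ethanol rat 23, the lowest for miR-10a-5p, the latter was 1.02.

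**Figure D3:**
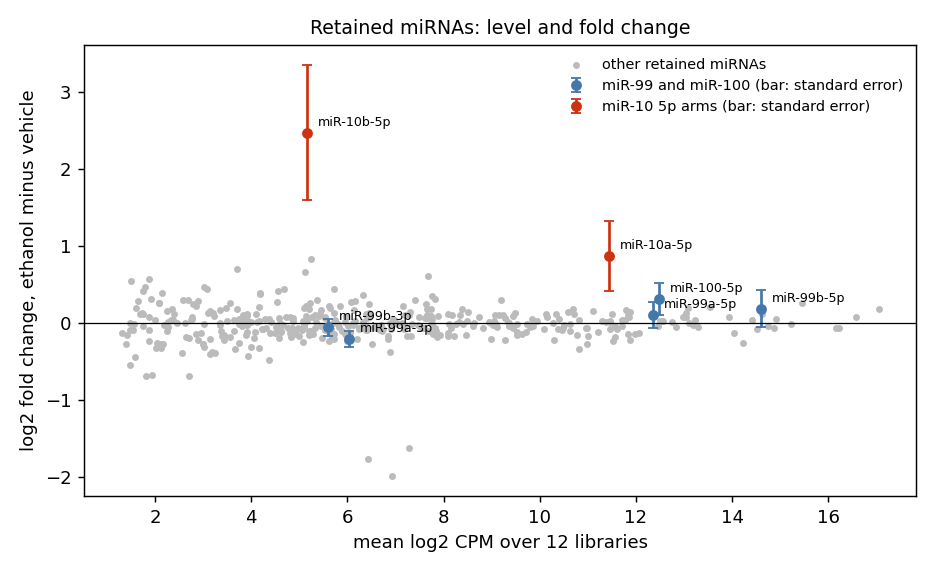
Log2 fold change (ethanol minus vehicle) against mean log2 CPM over 12 libraries for the 420 retained miRNAs, with the miR-10 5p strands in red and miR-99 and miR-100 in blue, bars showing the standard error. The miR-10 strands have the 2 highest fold changes, 2.47 ± 0.88 and 0.87 ± 0.46 (standard error), and the 5 relatives lie between -0.21 and 0.31.

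Among the 420 retained miRNAs, miR-10b-5p had the third largest SD of log2 CPM over the 12 libraries, 1.63, and miR-10a-5p ranked 18, with 0.85. The spread of miR-10a-5p lay in the ethanol rats, with an SD of log2 CPM of 1.00 (n = 8) against 0.084 in vehicle rats (n = 4). For miR-10b-5p log2 CPM ran from 4.17 to 8.16 in ethanol rats and from 2.72 to 4.89 in vehicle rats. The difference in spread was not tested.

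The miR-99 and miR-100 strands are related in sequence to miR-10 and lie outside the Hox clusters. They are shown for comparison, with the seed in capitals (miR-99a-5p has no entry in the RefSeq table).
miR-100-5p: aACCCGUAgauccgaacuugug
miR-99b-5p: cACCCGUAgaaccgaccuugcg
Facing miR-10a-5p without gaps, miR-100-5p is identical at 19 of 22 bases, and its seed, ACCCGUA, differs from both listed miR-10 seeds. For miR-100-5p the vehicle rats averaged 5093 ± 1212 CPM (SD, n = 4) and the ethanol rats 6315 ± 1487 CPM (SD, n = 8), with 6 of 8 ethanol rats above every vehicle rat. For miR-99b-5p the vehicle rats averaged 23746 ± 6561 CPM (SD, n = 4) and the ethanol rats 26915 ± 7622 CPM (SD, n = 8). Of the 6 listed strands of miR-99a, miR-99b and miR-100, 5 were retained, and edgeR's quasi-likelihood test gave 0 of them an adjusted or an unadjusted p below 0.05. Over all 420 these shares were 0% and 4.05%, so 0 of 5 says little about these strands. Of the 5, 3 were higher and 2 lower after ethanol, where 46% of all 420 were higher. Their median log2 fold change was 0.10 against -0.02 over all 420. Across the 12 libraries miR-10a-5p and miR-100-5p had Pearson r = 0.05 (permutation p = 0.881) and Spearman rho = 0.10 (permutation p = 0.766). Adjusted over 23 relations, these permutation p-values were 0.926 and 0.948. Without the libraries farthest from the median of miR-100-5p, vehicle rat 20 and ethanol rat 24, r was 0.60. With single rats left out in turn, r was between -0.18 and 0.49, so these libraries do not settle whether the 2 strands are related.

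The passenger strands were barely read. Over all 12 libraries miR-10a-3p had 4 reads, 1 in each of vehicle rats 19 and 20 and ethanol rats 8 and 16, against 117074 of miR-10a-5p. That is 0.00342% of the reads of both arms (95% Wilson interval 0.00133 to 0.00879). In the 8 libraries without a read, a count of 0 allows a share of up to 0.0102% to 0.0978%. For miR-10b-3p there were 8 reads, 3 of them in ethanol rat 4, 2 in ethanol rat 16 and 1 in each of vehicle rat 9 and ethanol rats 15 and 24, against 2303 of miR-10b-5p. This is 0.346% of the reads of both arms (0.176 to 0.682), and the interval does not overlap that of miR-10a. These intervals pool the 12 libraries and cover counting error only. In single libraries the miR-10b share ran from 0 to 5.22%, the highest in vehicle rat 9 with 1 read of miR-10b-3p. Reads of miR-10b-5p were fractional in all 12 libraries, and the part of read division in the difference between the stems was not tested. In the 7 libraries without a read of miR-10b-3p, a count of 0 allows a share of up to 0.905% to 7.99%. Whether the passenger strands followed the 5p strands could not be read from 4 and 8 reads. Ethanol rat 24, with the most miR-10a-5p and miR-10b-5p, held 0 and 1 passenger reads.

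Reads of miR-196 were near absent. The 5p strands together had 10 reads over 12 libraries, 2 in vehicle rat 19, 3 in ethanol rat 15, 1 in ethanol rat 16 and 4 in ethanol rat 24, which is 0.273 CPM over all libraries pooled. The other 8 libraries had 0 reads, and only ethanol rat 24 was above the floor of 3 counts. The 3p strands of miR-196a, miR-196b and miR-196c had 0 reads in all 12 libraries, which allows up to 0.610 to 1.53 CPM in a library. Ethanol rats 3 and 4, the next highest for miR-10b-5p after rat 24, had 0 reads of miR-196. Their libraries were small, at 2071127 and 2371071 counts against a median of 2958340, so 0 reads allow up to 1.45 and 1.27 CPM. Whether miR-196 followed miR-10b-5p could not be read from 10 reads. The other miRNA of the Hox clusters, miR-615, whose gene lies within the gene models of Hoxc5 and Hoxc6, had 1 read, in ethanol rat 3.

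**Figure D4:**
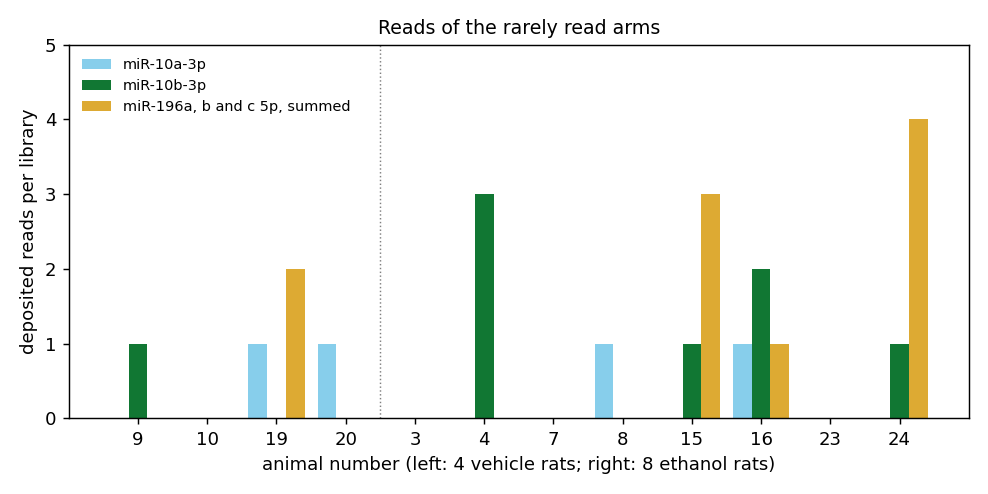
Deposited reads per library of miR-10a-3p, miR-10b-3p and the 5p strands of miR-196a, miR-196b and miR-196c summed, by animal number (vehicle rats left, ethanol rats right). No bar exceeds 4 reads, and the libraries with reads of miR-196 are vehicle rat 19 and ethanol rats 15, 16 and 24.

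Across the 12 libraries miR-10a-5p and miR-10b-5p had Pearson r = 0.77 and Spearman rho = 0.64, higher levels of one going with higher levels of the other. Because miR-10b-5p was chosen on its levels in these libraries, its relations are given as a description, without a p. Without ethanol rats 4 and 24, the libraries farthest from the median of miR-10a-5p, r was 0.37. Leaving out the ends of the range can itself lower r, so this cannot show that the relation rests on these rats. With single rats left out in turn, r was between 0.64 and 0.85. Within the 8 ethanol rats r was 0.78. Both strands can receive parts of the same reads, and the share of the relation that comes from this was not tested. Libraries were multiplexed in sets of 8, and the labels do not say which set held which library, so the relation could not be computed within batches.

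Among cell type markers, the 5 vascular miRNAs (miR-126a, of endothelium, and miR-143 and miR-145, of smooth muscle and other mural cells) had the highest r with miR-10a-5p of the 7 marker lists. The marker lists and tests were chosen with earlier results of these data known, which limits every p-value given for a relation. The mean log2 CPM of the vascular markers had r = 0.66 with miR-10a-5p (permutation p = 0.0196, rho = 0.71, permutation p = 0.0129). After adjustment over 23 relations this did not hold (adjusted p = 0.226 and 0.297), and without ethanol rats 4 and 23 r was 0.27. Ethanol rat 24 lay apart, with the most miR-10a-5p and a vascular marker mean among those of the vehicle rats. Without it r was 0.905, a description only, because rat 24 was picked out for lying apart. With single rats left out in turn, r was between 0.49 and 0.905. The summed level of the vascular markers was 38709 to 48403 CPM in vehicle rats and 32615 to 67999 in ethanol rats, of which 5 lay above and 2, again rats 15 and 23, below every vehicle rat. Most of this sum was miR-143-3p, at 30264 to 64705 CPM, against 416 to 617 CPM for miR-126a-3p. For miR-126a-3p, 3 ethanol rats lay above, 3 below and 2 within the vehicle range. By edgeR's quasi-likelihood test 0 of the 5 markers had an unadjusted p below 0.05, against 4.05% of all 420, so this count says little about them. Their median log2 fold change was 0.19. It was -0.03 for miR-126a-3p and -0.06 for miR-126a-5p, but 0.25, 0.19 and 0.42 for miR-143-3p, miR-145-5p and miR-145-3p. The list is thus not uniform, and the part of the vascular markers in the levels of miR-10a-5p was not tested.

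With miR-10b-5p the vascular markers had r = 0.46 and rho = 0.38, and r was 0.37 without ethanol rats 4 and 23. Blood markers had r = 0.51 with miR-10a-5p (permutation p = 0.0879, rho = 0.55, permutation p = 0.0667; adjusted p = 0.674 and 0.511), and r was 0.64 without ethanol rats 7 and 15. Their summed level was 139 to 238 CPM in vehicle rats and 64.0 to 317 in ethanol rats. Choroid plexus markers, which ran from 18437 to 82759 CPM in sum, had r = 0.16 with miR-10a-5p (permutation p = 0.625, rho = 0.06, permutation p = 0.869; adjusted p = 0.846 and 0.956), and r was 0.21 without ethanol rats 3 and 15. Muscle markers summed to 1686, 128, 1626 and 1766 CPM in vehicle rats 9, 10, 19 and 20. In ethanol rats they ran from 112 through a median of 200 to 1712 CPM, the highest in rat 16. Of the ethanol rats, 7 of 8 lay within the vehicle range, whose low end is vehicle rat 10 alone. The median log2 fold change of the muscle markers was -1.76 over the 3 retained. Their r was -0.04 with miR-10a-5p (permutation p = 0.896, rho = 0.12, permutation p = 0.717; adjusted p = 0.926 and 0.948; 0.12 without vehicle rats 9 and 20). With miR-10b-5p it was -0.34 (rho = -0.38, and r = -0.04 without the same rats), and their part in the levels of both strands was not tested. The log2 library total had r = -0.28 with miR-10a-5p (permutation p = 0.381, rho = -0.49, permutation p = 0.109; adjusted p = 0.796 and 0.565), and r was -0.20 without vehicle rats 19 and 20. P-values were adjusted over all 23 relations computed, including those of miR-10b-5p, which are given without a p. Of the relations of miR-10a-5p with measures other than miR-10b-5p, 0 had an adjusted p under 0.05 by Pearson's r or by Spearman's rho. A further 10 planned relations, those with passenger strands, miR-196 and miR-615, had too few reads.

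**Figure D5:**
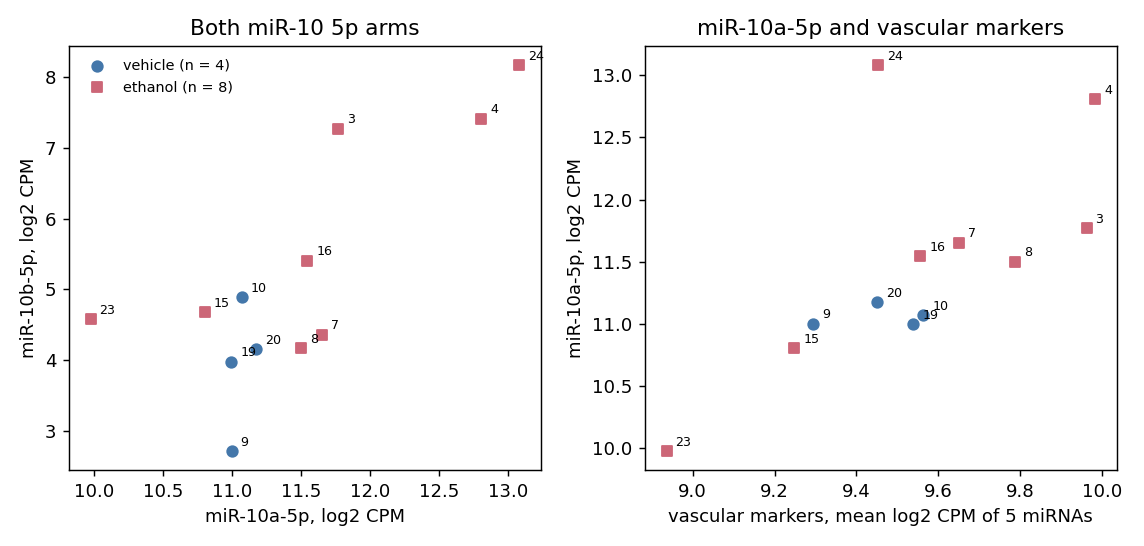
Levels of miR-10b-5p against miR-10a-5p (left) and of miR-10a-5p against the mean of 5 vascular marker miRNAs (right), all in log2 CPM, with each of 12 rats labelled by animal number. Pearson r is 0.77 and 0.66, ethanol rats 4 and 24 lie at the upper end of the left panel, and ethanol rat 24 lies apart from the other rats in the right panel.

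The retained miRNAs whose log2 CPM was most like that of miR-10a-5p over the 12 libraries were miR-143-5p, miR-143-3p, miR-214-3p, miR-145-5p and miR-135b-5p, with Pearson r from 0.79 to 0.71. Those most like miR-10b-5p were miR-127-5p, miR-345-3p, miR-210-5p, miR-135b-5p and miR-145-5p, with r from 0.83 to 0.66. Both lists thus hold miR-135b-5p and miR-145-5p. Each list is the top 5 of the retained miRNAs other than the members, ranked by r over libraries of different depth, and is a description without a p. Their levels differ widely, with means of 46392 CPM for miR-143-3p, 206 for miR-145-5p and 4.02 for miR-214-3p, and the order of miRNAs with a few CPM rests on few reads. Their own log2 fold changes after ethanol lay between 0.09 for miR-127-5p and 0.82 for miR-135b-5p, below that of miR-10a-5p.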

How the data were processed

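Small RNA (20 to 30 nt, from 1 µg of total RNA) was sequenced on a MiSeq for 37 cycles. For each rat the authors deposited expected counts (estimated counts) for 753 mature miRNAs, not scaled to library size. The submitters' processing notes name Partek, cutadapt and rn5; versions, roles and the miRNA annotation are not given in the sources used here. The study describes 8 rats per group; 4 vehicle and 8 ethanol libraries are analysed here. Libraries were multiplexed in sets of 8, and the set of each library is not given.

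Counts were rounded, except for ratios and sums. As in the study's methods, miRNAs under 10 reads in at least 10 libraries were dropped, and 420 were retained. R 4.3.3 with edgeR 4.0.16 (TMM, quasi-likelihood test, no covariates), limma 3.58.1, DESeq2 1.42.0 and Python 3.11.15 with scipy 1.17.1 were used. Standard errors were the fold change divided by the square root of F. Log2 CPM used a prior count of 2 and log2 ratios a pseudocount of 0.5. The fit was tested on simulated data. Relations used 100000 two-sided permutations and a median of at least 10 reads. Members, marker lists and tests were chosen with earlier results of these data known. Named miRNAs were the members, miR-99, miR-100, miR-615, the 5 most correlated with each 5p strand, and defining markers.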

Additional observations from a re-analysis of the deposited data

How the results depend on the processing

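When single rats were left out, the log2 fold change of miR-10b-5p stayed between 1.95 and 2.83 and that of miR-10a-5p between 0.59 and 1.02, and the group difference of the log2 ratio of miR-10a-5p to miR-10b-5p stayed between -1.59 and -0.87. Over the other normalizations, filters, tests and thinned counts the directions were the same, with the lowest values under limma-trend (1.82 and 0.58). When both strands were summed to 1 row, the sum had a log2 fold change of 0.89 (standard error 0.46), since miR-10a-5p holds nearly all reads. The count of called miRNAs was 1 with DESeq2's Wald test and between 0 and 3 with each rat left out (3 without ethanol rat 16), and 0 members were called under any of these settings. The count at an unadjusted p under 0.05 was between 5 and 21 with each rat left out (10 and 5 without vehicle rats 9 and 20, and 9, 11 and 11 without ethanol rats 3, 4 and 8) and between 13 and 23 otherwise. The mean 3p share over libraries (0.734% for miR-10b) lay between 0.00284% and 0.00411% for miR-10a and between 0.326% and 0.801% for miR-10b with each rat left out, the lowest for miR-10b without vehicle rat 9. Relations of miR-10b-5p carry no p, and its r with miR-10a-5p was highest, at 0.85, without ethanol rat 23. Among the other relations of miR-10a-5p, 0 had an adjusted p under 0.05 with single rats left out, except without ethanol rat 24. There the number was 1, for miR-10a-5p with the vascular markers (r = 0.905). Both values of r are descriptions as above, and the cause was not tested. With 18 to 119 reads of miR-10b-5p in 9 libraries, counting error and the division of shared reads limit its level there. No paired analysis was possible because the groups share no animal numbers. The study housed its rats in pairs, and the sample titles do not name the cages. The animal numbers run in consecutive pairs within a group, such as ethanol rats 3 and 4, and whether such pairs shared a cage is not given. The permutation tests took all rats as independent. If cage mates are alike, their p-values can be too small, which was not tested.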
